A study of Homo sapiens with 4 samples.

Results

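The genes described here are 45 components of the protein-folding machinery of the endoplasmic reticulum (ER): 8 chaperones, 11 oxidoreductases, 10 components of ER-associated degradation (ERAD), 8 components of the translocon, and 8 sensors and regulators of the unfolded protein response (UPR). They were taken from the table by symbol, from a list drawn up with earlier results of these data known, and each of the 45 had exactly 1 of the 57820 rows of the deposited table. All 45 also passed the filter on low counts that left 14616 genes for testing. The cells were U87, an established glioma line of human origin, carrying either a short hairpin RNA against GLUD1 (shGlud1) or a control hairpin (shNT). GLUD1 encodes the mitochondrial glutamate dehydrogenase. Each group had 2 libraries, and all 4 libraries came from cells held for 6 h in low glucose, so that condition was common to both groups and no library from another glucose level is analysed here. The culture medium held 10% bovine calf serum, and the labels name 1 hairpin per group and do not say whether the cells were a clone or a pool.

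Proteins bound for secretion or for membranes enter the ER through the SEC61 channel, fold with the help of chaperones such as BiP and of protein disulfide isomerases, and are returned to the cytosol and degraded by ERAD when they fail to fold. Unfolded protein in the ER activates the sensors IRE1, PERK and ATF6, which raise transcription of these same chaperones, isomerases and degradation factors, the UPR. IRE1 acts through splicing of XBP1 mRNA, and ATF6 through cleavage by the site 1 and site 2 proteases. Gene counts do not show splicing of XBP1, cleavage of ATF6 or phosphorylation of any sensor.

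The libraries held 16546849 and 18118503 expected counts for shNT and 17407149 and 18537314 for shGlud1. Their Spearman correlation across genes was 0.99 within either group and 0.928 to 0.943 between groups. Levels are given as CPM, counts scaled to a common library size with TMM factors, which were 0.826 and 0.845 in shNT and 1.15 and 1.24 in shGlud1. Each difference is a log2 fold change of shGlud1 relative to shNT with its standard error (SE), and a gene was called lower or higher where edgeR's quasi-likelihood test gave a Benjamini-Hochberg adjusted p under 0.05 over all genes tested. GLUD1 itself stood at 78.1 and 76.5 CPM in shNT and at 34.0 and 44.5 CPM in shGlud1. Its log2 fold change was -0.98 (SE 0.13, edgeR adjusted p = 1.26e-12), and -0.45 when only library totals set the scale. The value was -0.44 with a trend on median transcript length removed. Separate cultures are not stated in the labels, so p-values measure the spread between these libraries only. As the RNA was bulk, fewer cells of a kind and less RNA per cell cannot be told apart.

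Of 10 glioma line markers, 8 passed the filter on low counts, and GFAP and S100B were under 1 CPM in all 4 libraries. The summed glioma markers, scaled by library totals, were 3372 to 3573 CPM in shNT and 8793 to 10414 CPM in shGlud1, most of it from VIM. EGFR, part of that sum, was at 136 and 118 CPM in shNT and 1367 and 1709 CPM in shGlud1. With library totals the median log2 fold change of all tested genes was itself 0.57. Summed fibroblast markers were 120.9 to 130.5 CPM in shNT and 265 to 276 CPM in shGlud1, most of it from COL1A2. LUM was at 10.7 and 13.6 CPM in shNT and 11.3 and 9.93 CPM in shGlud1. Summed neuron and oligodendrocyte markers were 7.62 to 8.76 CPM in shNT and 18.2 to 23.3 CPM in shGlud1. Summed endothelial markers stayed at or under 2.01 CPM in every library. Immune markers summed to 304 to 331 CPM in shNT and 334 to 343 CPM in shGlud1, nearly all from CD68, and 4 of 6 were under 1 CPM throughout. Epithelial markers summed to 30.9 to 31.7 CPM and to 24.0 to 27.5 CPM, with 3 of 5 under 1 CPM. Their part in the results was not tested.

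Of the 45 genes, 25 were lower in shGlud1, 14 were higher and 6 were not called. Across all 14616 genes the called share was 29.1% lower and 31.9% higher, so the 55.6% of members that were lower stood above the background and the 31.1% that were higher stood near it. In the main fit, with TMM factors, 13 members were at least 2-fold lower and 1 was at least 2-fold higher, where the background was 12.8% and 14.9%. The median log2 fold change of the 45 was -0.61, against 0.06 over all genes tested. The members did not move as a block: the chaperones had a median of -1.21, the translocon -0.86, ERAD -0.60, the oxidoreductases -0.01 and the sensors 0.27. With library totals as the scale, which moved the median of all genes by 0.52, 19 members were lower and 18 higher, against 13.7% and 51.9% of all genes. Relative to that shifted median, the role medians were -1.26, -0.92, -0.65, -0.06 and 0.21 in the same order. With library totals, members passed 2-fold in both directions. HSPA5 stood at -1.28 and SDF2L1 at -1.43, and PDIA5 at 1.45 and MBTPS2 at 1.40.

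**Figure D1:**
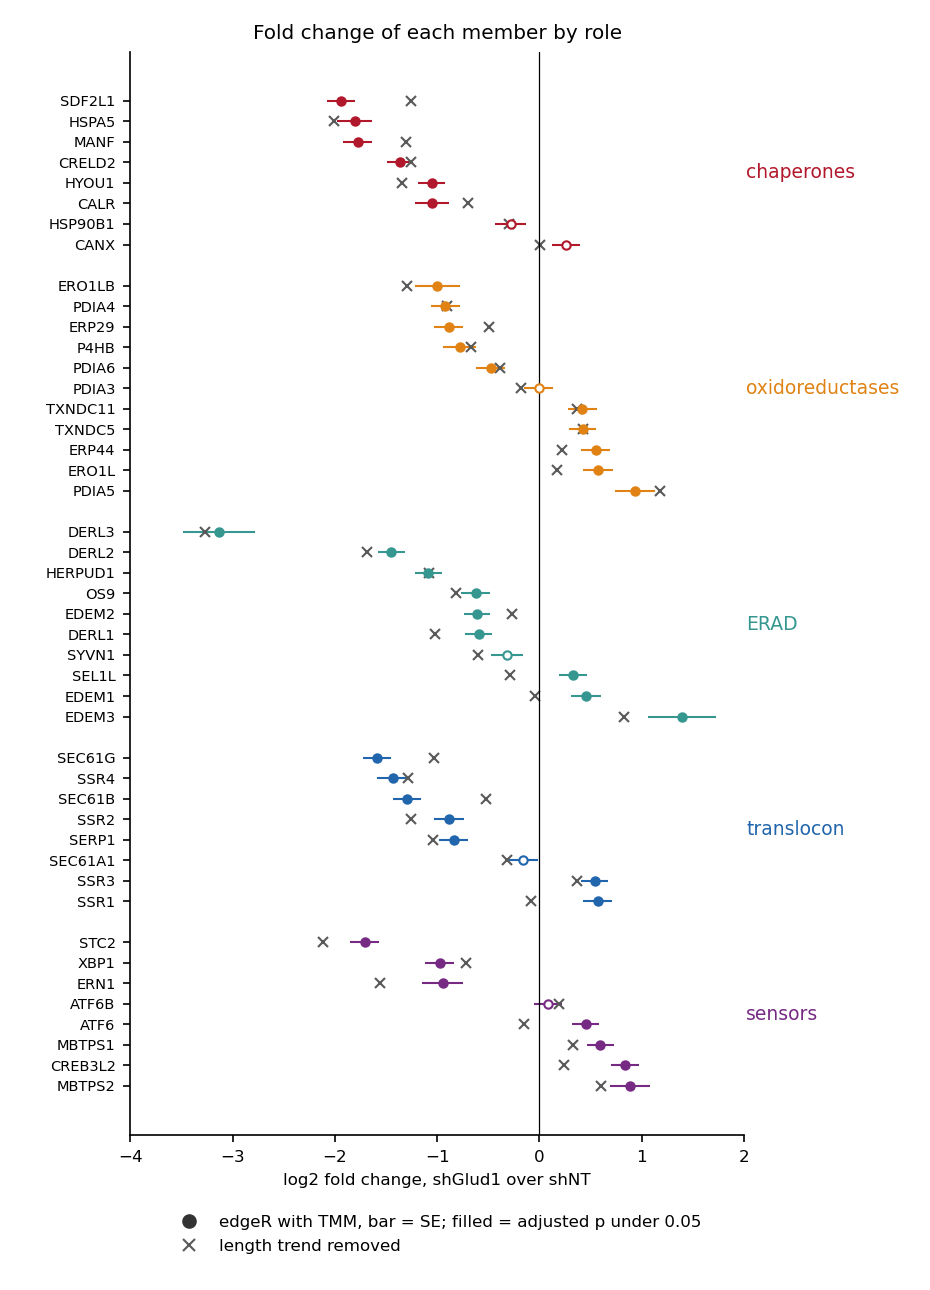
Log2 fold change, shGlud1 over shNT, of each of the 45 genes, coloured and grouped by role, with bars of 1 SE, filled points for genes called and open points for genes not called; crosses give the value with the trend on transcript length removed. The 6 lower chaperones lie between -1.94 and -1.05, and the chaperones not called, HSP90B1 and CANX, at -0.28 and 0.26. Oxidoreductases, ERAD, translocon and sensor genes each lie on both sides of 0.

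The chaperones had the lowest median of the 5 roles: 6 of 8 were lower, all of them at least 2-fold, and none was higher. Of all tested genes 29.1% were lower and 31.9% higher. With library totals as the scale 3 were at least 2-fold lower, with HYOU1 at -0.53, CALR at -0.53 and CRELD2 at -0.85, and 4 were without shNT replicate 1. HSPA5 (ENSG00000044574, GRCh38 chromosome 9, 125234853 to 125241330), which encodes BiP, the main HSP70 chaperone of the ER lumen, stood at 3445 and 3193 CPM in shNT and at 891 and 1009.8 CPM in shGlud1. Its mean went from 3319 ± 178 to 950.5 ± 83.8 CPM (SD, n = 2), and its log2 fold change was -1.80 (SE 0.17, edgeR adjusted p = 1.23e-24). Both shGlud1 libraries lay far below both shNT libraries, where the groups of 81.0% of all tested genes did not overlap. HSPA5 alone took 0.284% and 0.270% of all counts in shNT but 0.102% and 0.126% in shGlud1.

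SDF2L1, MANF, HYOU1 and CRELD2 were lower too. SDF2L1, a stress-induced partner of BiP and its J-domain proteins, measured 272 and 262 CPM in shNT and 74.0 and 65.3 CPM in shGlud1, a log2 fold change of -1.94 (SE 0.14, edgeR adjusted p = 9.1e-43), which became -1.25 with the trend on transcript length removed. MANF, a secreted ER protein that binds BiP, went from 422 and 422 CPM to 128 and 118 CPM, a log2 fold change of -1.78 (SE 0.14). In neither gene did the groups overlap, which held for 81.0% of all tested genes. HYOU1, the nucleotide exchange factor of BiP, fell by 1.05 on the log2 scale, from 246 and 208 CPM to 105 and 113 CPM. CRELD2, an ER-stress-induced protein with EGF-like domains, measured 133 and 124 CPM in shNT and 53.2 and 46.7 CPM in shGlud1, a log2 fold change of -1.36 (SE 0.13).

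The lectin chaperones parted. CALR, the soluble lectin calreticulin, measured 3137 and 2618 CPM in shNT and 1363 and 1416 CPM in shGlud1, a log2 fold change of -1.05 (SE 0.17, edgeR adjusted p = 1.86e-09). CANX, its membrane-bound relative calnexin, measured 206 and 225 CPM in shNT and 238 and 276 CPM in shGlud1, and its difference of 0.26 (SE 0.14) did not pass the test (edgeR adjusted p = 0.0919). HSP90B1, the HSP90 of the ER (GRP94), was the other chaperone that was not called, at 632 and 732 CPM in shNT and 505 and 617 CPM in shGlud1, with a difference of -0.28 (SE 0.15, edgeR adjusted p = 0.091). The 8 chaperones together took 0.701% and 0.657% of all counts in shNT and 0.386% and 0.455% in shGlud1. All 6 lower calls among them held in each of the 11 other fits tried. CANX was called higher with library totals, with no filter and without shGlud1 replicate 1, and HSP90B1 lower with DESeq2, without shGlud1 replicate 2 and with the trend on transcript length removed.

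**Figure D2:**
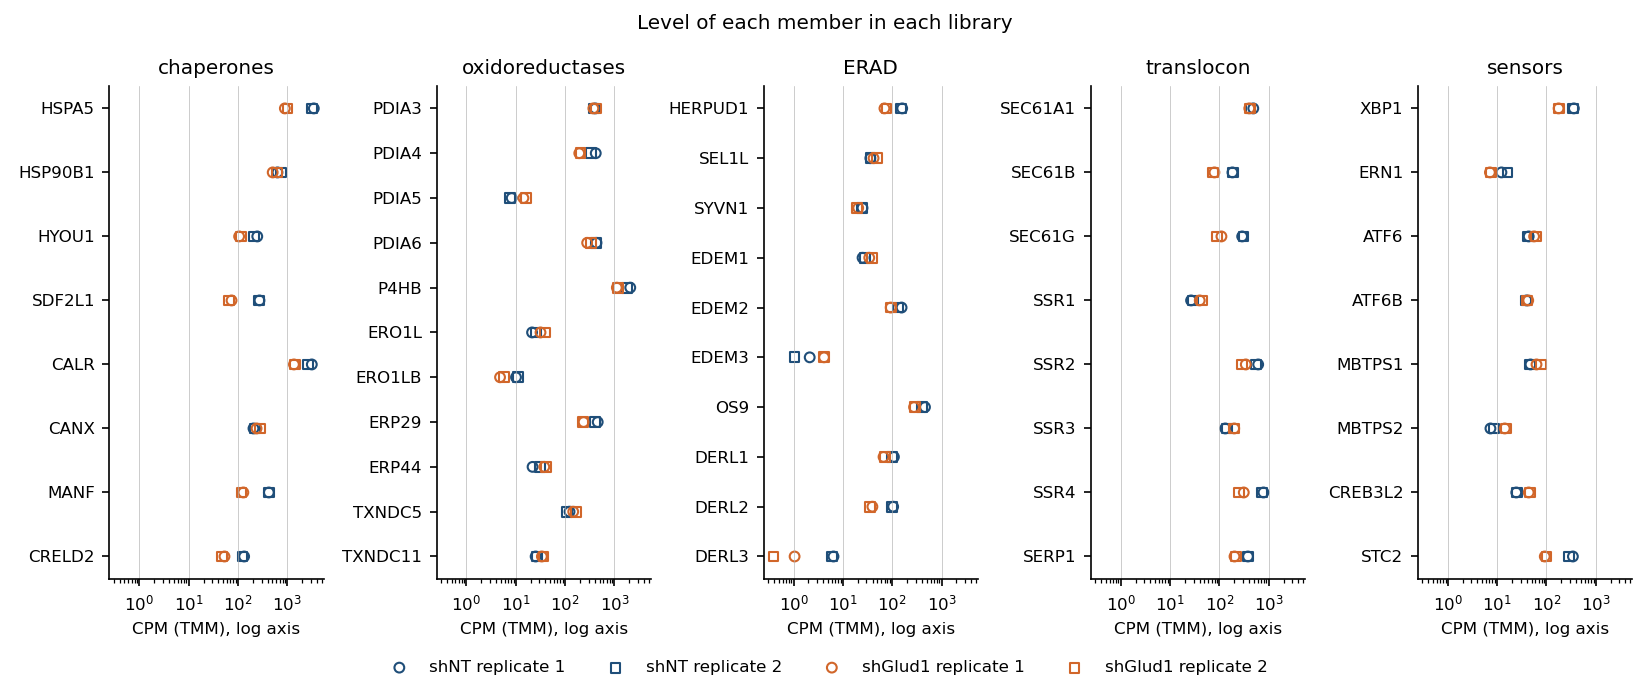
CPM of each member in each of the 4 libraries on a log axis, 1 panel per role, colour for the group and shape for the replicate. The points of 44 members, among them HSPA5, SDF2L1, MANF and DERL3, lie apart by group, as in 81.0% of all tested genes, while those of PDIA3 overlap.

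ATF6 and XBP1 act on known promoter elements, which were sought in RefSeq promoter windows (GRCh38.p14, from 250 bases before to 50 after a gene's start, both strands). The ER stress response element (ERSE) was searched as CCAAT, any 9 bases, CCACG; ERSE-II as ATTGG, any 1 base, CCACG; and the UPR element core (UPRE core) as TGACGTGG, which can share its CCACG with ERSE-II. Of the 45 members 42 matched the table, and PDIA3, DERL1 and DERL3 had no entry. A gene counted where any of its windows matched. ERSE was found in 9 members, namely HSPA5, HSP90B1, CALR, CANX, CRELD2, PDIA6, ERO1LB, SERP1 and XBP1, against 0.0916% of all 27305 genes in the table. ERSE-II was found in HYOU1, SDF2L1 and HERPUD1, against 0.0696% of all genes. The UPRE core was found in 5 members, HYOU1, TXNDC5, TXNDC11, SSR3 and SSR4, against 0.927%. Among the 10565 tested genes with a window, the shares were 0.151% for ERSE, 0.123% for ERSE-II and 1.17% for the UPRE core. All these shares include the members, which were 9 of the 25 genes with ERSE and 3 of the 19 with ERSE-II. Both elements are named for the ER stress response of genes such as these, so a higher share among members is no independent result. HSP90B1 and CANX hold ERSE too but were not called, and their windows are not printed. The following 6 windows belong to genes that were lower in shGlud1, and they are shown because members with and without an element are compared below. Each is read on the gene's own strand with 12 bases on each side, and capitals mark the element, reversed where it lies on the other strand. They come from chr9:125241379-125241421 (minus strand), chr19:12938372-12938414, chr22:49918542-49918584, chr22:21642102-21642136 and chr16:56932013-56932047 (plus strand), and chr11:119057262-119057405 (minus strand), in the order HSPA5, CALR, CRELD2, SDF2L1, HERPUD1, HYOU1.
HSPA5: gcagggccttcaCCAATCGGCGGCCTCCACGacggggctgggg
CALR: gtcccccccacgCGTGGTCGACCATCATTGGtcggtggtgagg
CRELD2: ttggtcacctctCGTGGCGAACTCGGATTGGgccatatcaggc
SDF2L1: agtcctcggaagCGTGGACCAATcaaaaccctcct
HERPUD1: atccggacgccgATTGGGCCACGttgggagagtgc
HYOU1: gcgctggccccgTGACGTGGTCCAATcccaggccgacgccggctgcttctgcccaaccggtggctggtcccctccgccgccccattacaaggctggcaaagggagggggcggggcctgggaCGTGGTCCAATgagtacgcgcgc
HSPA5 carries its ERSE in the forward orientation between 66 and 48 bases before the start, CALR and CRELD2 in the reverse orientation. The HYOU1 window holds ERSE-II in 2 places, the first overlapping the UPRE core.

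The calls of members with and without these elements are given as a description, with no test of the difference. Of all tested genes 29.1% were lower and 31.9% higher. Of the 12 with ERSE or ERSE-II, 10 were lower, 0 higher and 2 not called (HSP90B1 and CANX), with a median log2 fold change of -1.02. Of the 30 matched members without either, 13 were lower, 14 higher and 3 not called, with a median of -0.04. With library totals, 8 members with ERSE or ERSE-II were lower and 1 higher, and 10 without were lower and 16 higher. On that scale 13.7% of all genes were lower and 51.9% higher. Of the 5 with a UPRE core, 2 were lower and 3 higher, with a median of 0.42, against 21 lower, 11 higher and a median of -0.62 in the 37 without it. Outside the members, 17 tested genes hold an ERSE or ERSE-II, of which 6 were lower, near the share of all genes, and 9 higher, with a median of 0.55. Among those, chosen after their values were seen, FICD, the enzyme that AMPylates BiP, fell by 1.19 on the log2 scale. A match describes letters in a window and shows no binding of a factor.

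**Figure D3:**
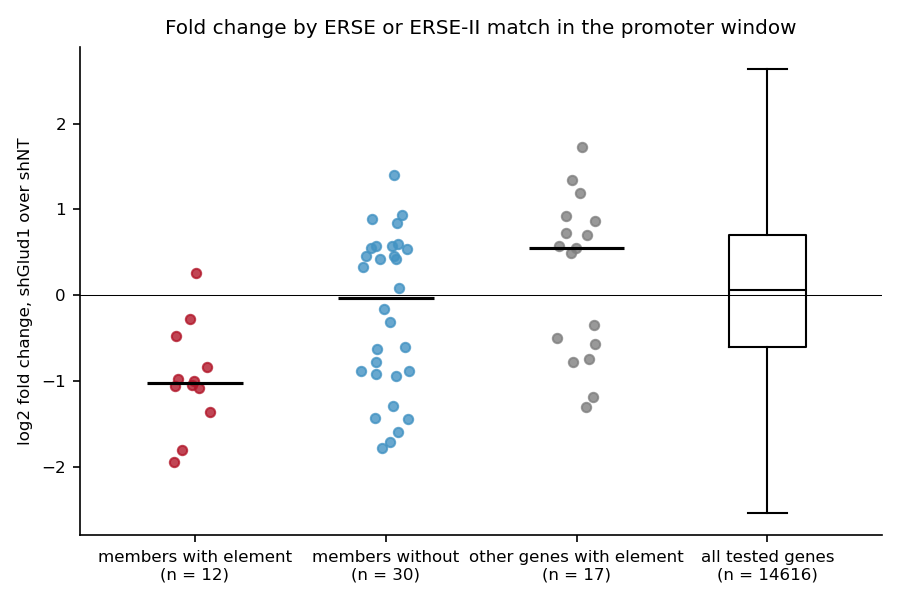
Log2 fold change of the 12 members with ERSE or ERSE-II in a promoter window, the 30 matched members without, and the 17 tested genes outside the members that hold an element, 1 point per gene with the median as a line; a box shows quartiles of all 14616 tested genes, with whiskers to the last value within 1.5 times the box height. The medians of the points are -1.02, -0.04 and 0.55.

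The oxidoreductases divided evenly. They form, shuffle or reduce disulfide bonds of folding proteins, and 5 of 11 were lower, 5 higher and 1 not called, none of them by 2-fold in the main fit. Each called share was 45.5%, against 29.1% lower and 31.9% higher of all tested genes. P4HB, protein disulfide isomerase itself, stood at 2092 and 1828 CPM in shNT and at 1119 and 1167 CPM in shGlud1, a log2 fold change of -0.78 (SE 0.16). PDIA4, a larger isomerase found with BiP, measured 418 and 335 CPM in shNT and 194 and 204 CPM in shGlud1 (log2 fold change -0.92, SE 0.14). ERP29, a redox-inactive relative with a thioredoxin fold, went from 458 and 400.3 CPM to 237 and 228 CPM, a log2 fold change of -0.89 (SE 0.14). In these 3 genes both shGlud1 libraries were below both shNT libraries, where 81.0% of all tested genes had groups that did not overlap. PDIA6, an isomerase that also binds IRE1, fell by only 0.47 on the log2 scale (SE 0.14, edgeR adjusted p = 0.00202), and its call was lost with library totals as the scale (0.05) and without either shNT library.

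PDIA3, the isomerase that works with calnexin and calreticulin, had groups that overlapped, at 409 and 389 CPM in shNT and 374 and 421 CPM in shGlud1 (log2 fold change -0.01, SE 0.14, edgeR adjusted p = 0.972). On the TMM scale the groups of the other 44 members did not overlap, where 81.0% of all tested genes did not. With library totals 40 members did not overlap, against 83.4% of all genes, and the groups of HSP90B1, PDIA6, EDEM2, OS9 and DERL1 did while those of PDIA3 did not. The ERO1 oxidases, which feed oxidizing power to the isomerases, moved in opposite directions. ERO1LB, now named ERO1B, was at 10.1 and 11.1 CPM in shNT and 4.80 and 5.82 CPM in shGlud1, a log2 fold change of -0.996 (SE 0.22). ERO1L, now named ERO1A, was at 21.4 and 26.1 CPM in shNT and 31.7 and 38.8 CPM in shGlud1, a log2 fold change of 0.57 (SE 0.15). With the trend on transcript length removed ERO1L stood at 0.18 and was not called. ERP44, which retains ERO1 in the early secretory pathway, was higher by 0.55, and TXNDC5 and TXNDC11, both with thioredoxin domains, were each higher by 0.42. ERP44 stood at 0.22 with the trend on transcript length removed and at -0.066 by the median transcript, called in neither. TXNDC11 was not called with DESeq2. PDIA5, another isomerase, measured 8.28 and 7.65 CPM in shNT and 14.3 and 16.0 CPM in shGlud1, a log2 fold change of 0.93 (SE 0.20), and of the 5 higher oxidoreductases only its call held in all 11 other fits. Without shNT replicate 1 the calls of ERO1L, ERP44 and TXNDC11 were lost, without shNT replicate 2 that of TXNDC5, and with library totals that of ERO1LB.

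In ERAD, 6 of 10 genes were lower, 3 higher and 1 not called. Beside 29.1% lower and 31.9% higher of all tested genes, the lower share was above the background and the higher share near it. DERL3, a Derlin of the retrotranslocation channel that ER stress induces, showed the largest fall of all members. Its expected counts were 88 and 92 in shNT and 21 and 9 in shGlud1, or 6.45 and 6.01 CPM against 1.05 and 0.391 CPM, a log2 fold change of -3.13 (SE 0.35, edgeR adjusted p = 3.76e-18). Its relative DERL2 went from 104 and 100.3 CPM to 39.6 and 35.5 CPM (log2 fold change -1.45, SE 0.13). DERL1, the third Derlin, was less far apart, at 108 and 100.1 CPM in shNT and 66.7 and 71.3 CPM in shGlud1 (-0.59, SE 0.13). DERL2 and DERL3 were lower in both shGlud1 libraries than in either shNT library on either scale, while the groups of DERL1 overlapped with library totals (-0.072). Of all tested genes 81.0% did not overlap on the TMM scale and 83.4% with library totals. The log2 fold change of DERL3 was -3.99 without shGlud1 replicate 1 and -2.55 without shGlud1 replicate 2.

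HERPUD1, the ubiquitin-like membrane protein that organizes the HRD1 ligase, measured 159 and 151 CPM in shNT and 69.6 and 76.3 CPM in shGlud1, a log2 fold change of -1.09 (SE 0.13). The ligase's own core showed smaller differences. SYVN1, which encodes HRD1, was at 24.98 and 24.1 CPM in shNT and 20.4 and 19.1 CPM in shGlud1 and did not pass the test (-0.31, SE 0.16, edgeR adjusted p = 0.0685). Its partner SEL1L was higher by 0.33 (SE 0.14, edgeR adjusted p = 0.0292), a call that was lost in 6 of the 11 other fits. The lectin OS9, which passes misfolded glycoproteins to the ligase, fell by 0.62. With library totals the calls of OS9 and DERL1 were lost, and SYVN1 was called lower in 4 of the 11 other fits: with RLE factors, with the replicate block, without shGlud1 replicate 1 and with the trend on transcript length removed (-0.60).

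The mannose-trimming EDEM proteins, which mark glycoproteins for ERAD, did not move together. EDEM2 was lower, at 155 and 129 CPM in shNT and 93.1 and 93.0 CPM in shGlud1 (-0.61, SE 0.13). EDEM1 was higher, at 25.1 and 28.4 CPM in shNT and 34.2 and 39.1 CPM in shGlud1 (0.46, SE 0.14). With the trend on transcript length removed EDEM1 stood at -0.0455 and was not called. EDEM3 was the only member at least 2-fold higher in the main fit. It rested on few counts: 29 and 16 in shNT and 83 and 95 in shGlud1, a log2 fold change of 1.40 (SE 0.33, edgeR adjusted p = 7.92e-05). The call of EDEM1 was lost without shNT replicate 1, and that of EDEM2 with library totals (-0.088) and with the trend on transcript length removed (-0.27).

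Of the translocon genes, 5 of 8 were lower (62.5%) and 2 higher (25%), against 29.1% and 31.9% of all tested genes. The channel's 3 subunits differed: SEC61A1, the pore, was not called at 488 and 428 CPM in shNT and 405 and 417 CPM in shGlud1 (-0.16, SE 0.14, edgeR adjusted p = 0.352). SEC61A1 was called higher with library totals (0.37) and lower with the trend on transcript length removed (-0.32). SEC61B, a small tail-anchored subunit, was at 184 and 192 CPM in shNT and 79.5 and 73.8 CPM in shGlud1 (-1.29, SE 0.13), which became -0.52 with the trend on transcript length removed. SEC61G, the other small subunit, was at 290.3 and 309 CPM in shNT and 110.3 and 88.6 CPM in shGlud1 (-1.59, SE 0.14, edgeR adjusted p = 5.18e-29). Both small subunits thus fell beyond the spread of the libraries.

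The translocon-associated protein (TRAP) complex, which assists SEC61 with some signal sequences, was divided likewise among its 4 subunits. SSR4 was at 785 and 737 CPM in shNT and 313 and 249.9 CPM in shGlud1 (-1.43, SE 0.15), and SSR2 fell by 0.89. SSR1 was higher by 0.57, and SSR3 was at 132 and 143 CPM in shNT and 201 and 199 CPM in shGlud1 (0.54, SE 0.13). With the trend on transcript length removed SSR1 stood at -0.084 and was not called. SERP1, a small membrane protein that protects newly made proteins at the translocon under stress, was at 381 and 378 CPM in shNT and 203 and 222 CPM in shGlud1 (-0.84, SE 0.14). All 5 lower calls of the translocon held in each other fit, while that of SSR3 was lost without shNT replicate 1.

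Among the sensors and regulators, 3 of 8 were lower (37.5%), 4 higher (50%) and 1 not called. The background was 29.1% lower and 31.9% higher, so the lower count was near it. XBP1, the transcription factor of the IRE1 branch, measured 359.6 and 344 CPM in shNT and 176 and 181 CPM in shGlud1, a log2 fold change of -0.98 (SE 0.14, edgeR adjusted p = 1.85e-11). ERN1, which encodes IRE1 alpha, measured 12.2 and 16.2 CPM in shNT and 7.15 and 7.64 CPM in shGlud1 (-0.95, SE 0.20, edgeR adjusted p = 6.52e-06), a call that was lost with library totals as the scale, and its difference was -1.56 with the length trend removed. Kinase and target of this branch were thus both lower.

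In the ATF6 branch 3 genes were higher and 1 was not called. ATF6 was at 43.7 and 42.3 CPM in shNT and 56.2 and 61.3 CPM in shGlud1 (0.45, SE 0.13), and its paralog ATF6B was not called (0.08, SE 0.14, edgeR adjusted p = 0.609). MBTPS1 and MBTPS2, the site 1 and site 2 proteases that release ATF6, were higher by 0.59 and 0.88. CREB3L2, a membrane-bound transcription factor of the ATF6 type, was at 24.5 and 25.7 CPM in shNT and 43.7 and 46.0 CPM in shGlud1 (0.84, SE 0.14). Only the call of MBTPS1 among these held in every other fit, and that of ATF6 was lost without shNT replicate 2. With the length trend removed ATF6 stood at -0.15 and CREB3L2 at 0.24, neither called, and on the median transcript MBTPS2 stood at 0.29 and was not called. STC2, a secreted glycoprotein that ER stress induces and no sensor by function, was at 344 and 287 CPM in shNT and 92.5 and 100.2 CPM in shGlud1 (-1.71, SE 0.14).

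Ratios of 2 members within a library do not depend on scaling between libraries. The 12 pairs shown were chosen, and oriented, after the values were seen, so they are a description with no test, and with 2 libraries against 2 an exact two-sided permutation test could not go below p = 0.333. SSR4 over SSR3 was 5.95 and 5.15 in shNT and 1.56 and 1.25 in shGlud1, a 3.94-fold fall of the mean ratio. ERO1LB over ERO1L was 0.473 and 0.426 in shNT and 0.151 and 0.15 in shGlud1, a 2.99-fold fall. HSPA5 over HSP90B1 was 5.45 and 4.36 against 1.76 and 1.64, and SEC61G over SEC61A1 was 0.595 and 0.722 against 0.272 and 0.213. Each pair thus had both shGlud1 ratios below both shNT ratios. A ratio can still carry a difference linked to transcript length, which is described below. With the length trend removed, EDEM2 stood at -0.27 and EDEM1 at -0.0455, and SEC61B at -0.52 and SEC61A1 at -0.32. HSPA5 and HSP90B1 stayed far apart, at -2.01 and -0.30. The smallest fall among the 12 was that of SYVN1 over SEL1L, 1.54-fold.

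**Figure D4:**
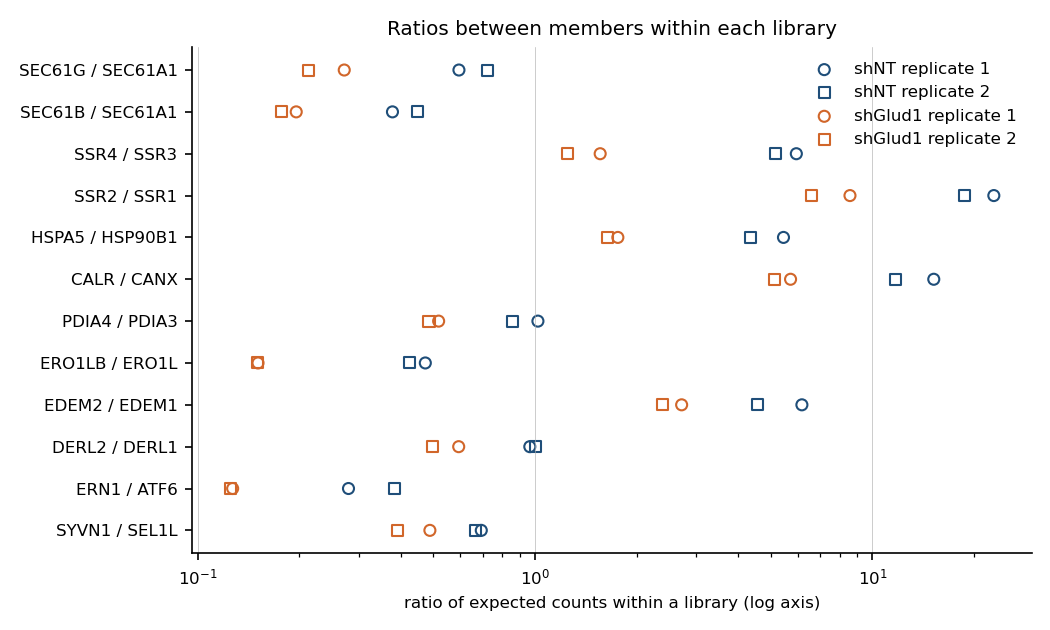
Ratio of expected counts of 12 pairs of members in each library, on a log axis, colour for the group and shape for the replicate. Every pair has both shGlud1 points below both shNT points, from a 1.54-fold fall for SYVN1 over SEL1L to a 3.94-fold fall for SSR4 over SSR3.

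Transcript length moved with these differences. Over 14266 genes with a length, the Spearman correlation of log2 fold change with the longest annotated transcript was 0.447, and over the 45 members it was 0.460. With the median length of a gene's transcripts the correlations were weaker, 0.202 and 0.266. Lower members had a median longest transcript of 2903 nt and higher members one of 5069.5 nt, against 3374.5 nt over all tested genes. SEC61B (687 nt) and SSR1 (9669 nt) were the ends of that range. With the trend on length removed from each library, 27 members were lower and 7 higher, against 28.4% and 27.1% of all genes. The role medians were then -1.26 for chaperones, -0.77 for the translocon, -0.71 for ERAD, -0.18 for oxidoreductases and 0.02 for sensors, and members with and without an ERSE or ERSE-II had medians of -1.06 and -0.28. SSR1, SEL1L, EDEM1 and ATF6 changed sign, to -0.084, -0.29, -0.0455 and -0.15. With the trend on the median transcript removed instead, 26 members were lower and 11 higher. What part length had in the calls was not tested.

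**Figure D5:**
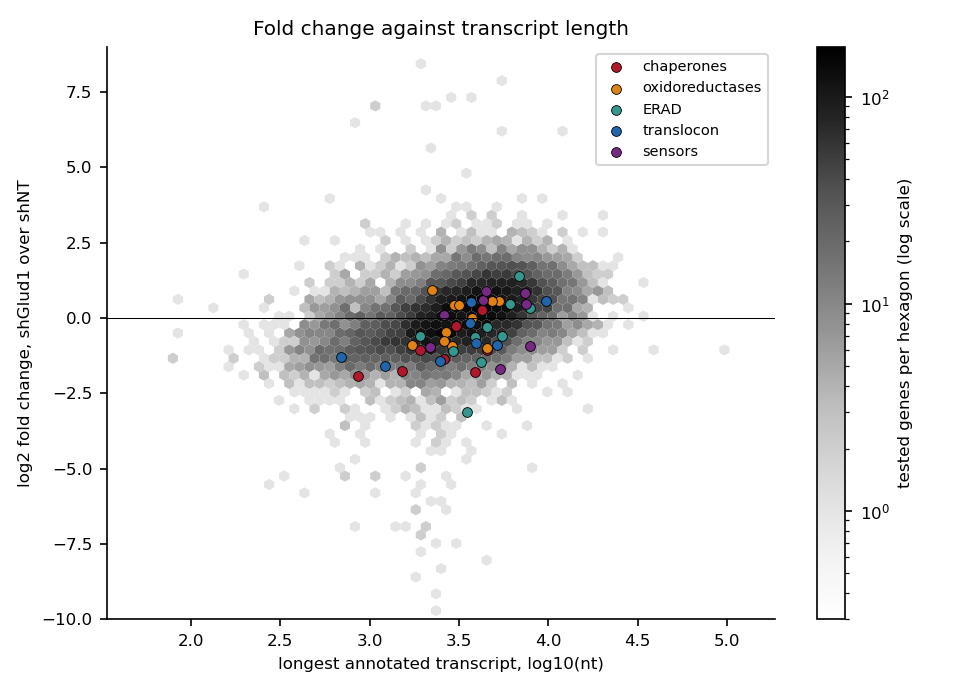
Log2 fold change of each member, coloured by role, against the log10 length of its longest annotated transcript in nt, over grey hexagons shaded by the number of tested genes on a log scale. Over the tested genes the Spearman correlation was 0.447, and over the members 0.460.

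The wider pathway was read from lists of 172 further genes, of which 167 were tested: 74 were lower, 48 higher and 45 not called, with a median of -0.22. Beside the 29.1% lower and 31.9% higher of all genes, the lower count was above the background and the higher count near it. Other ER chaperones and prolyl isomerases had 11 of 20 lower and 2 higher. SERPINH1, the collagen chaperone HSP47, was at -2.27 and PPIB, cyclophilin B, at -1.60, while the prolyl isomerase FKBP9 was higher by 0.98. Among J-domain cochaperones of BiP 4 of 10 were lower and 4 higher, with DNAJB9 at -1.83 and DNAJC16 at 1.13. Of the oligosaccharyltransferase, which attaches N-glycans, 7 of 12 were lower, among them OSTC at -1.05, and 1, RPN2, was higher at 0.36. Of the ER membrane complex, an insertase, 6 of 10 were lower and 1 higher, EMC7 at -1.13 and MMGT1 at 0.86.

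Targeting, translocation and signal peptidase genes were lower in 10 of 18 and higher in 3, with SEC11C, a signal peptidase subunit, at -1.86 and SRP54, of the signal recognition particle, at 1.32. Other thioredoxin-fold and redox genes were lower in 9 of 17 and higher in 3, with the selenoprotein SELK at -1.88 and the peroxidase GPX8 at 1.05. The calnexin cycle was lower in 3 of 11 and higher in 4, both near the background, with the cargo lectin LMAN2 at -1.30 and the folding sensor UGGT1 at 1.34. Other ERAD genes were lower in 9 of 30, near the background, and higher in 13, with VIMP at -1.56 and UBXN4 at 1.11. COPII coat and exit-site genes ran the other way, higher in 10 of 15 and lower in 4, with a median of 0.79 and SEC31A, an outer coat subunit, at 1.18. Other UPR regulators were lower in 11 of 24 and higher in 7, with the stress factors DDIT3 at -3.39 and TRIB3 at -3.17 and the membrane-bound factor CREB3L1 at 1.33.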

How the data were processed

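RNA-seq was made from poly-A RNA of 4 libraries, 2 per group, with a kit that does not mark strand, per the labels' protocols. The deposited values are the authors' expected counts, that is, estimates of reads per gene that can hold fractions; 20.1% of values above 0 were not whole, as were those of 13 members in at least 1 library. The submitters' processing notes name Bowtie 0.12.2 and the mouse build mm8, yet every row carries a human gene ID, so the build is uncertain; the counting program is not given in the sources used here. Reads shared by near-identical or overlapping genes may be misassigned.

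Counts were rounded, filtered by filterByExpr (minimum count 10, 14616 of 57820 rows kept), scaled by TMM and tested with edgeR 4.0.16 (R 4.3.3, robust quasi-likelihood, Benjamini-Hochberg), using all 4 libraries and no replicate block. Variation between libraries of a group, as biological coefficient of variation, came to 10.3%. Counts were simulated from these 14616 genes with 67 genes changed 1.5-fold, 67 changed 2-fold and 66 changed 4-fold. The edgeR test recovered 37.3%, 65.7% and 97% of these, in that order. Far fewer genes were changed there than were called in the data, so recovery in the data may differ. SE is the absolute log2 fold change over the square root of F. Same-numbered libraries did not deviate together (correlation 0.0527), and the labels name no shared source, so numbers were not taken as pairs.

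Alternatives were RLE factors, library totals, no filter, DESeq2 1.42.0, the block, each library left out, and removal of a lowess trend (span 0.3) on the longest GENCODE 29 transcript; removal on the median transcript was added after the data were seen. Members and lists were chosen with earlier results of these data known. Named are all members, GLUD1, and of each pathway list genes among the 2 that rose and 2 that fell with lowest p. Without molecular identifiers, PCR copies are not independent molecules. Protein ends were not analysed here.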

Additional observations from a re-analysis of the deposited data

How the results depend on the processing

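With 2 libraries per group, many small differences may be missed. They were in the simulated counts, where far fewer genes were changed than were called in the data. Of the 25 lower calls, 19 held in each of 11 alternatives, as did 3 of the 14 higher calls (PDIA5, EDEM3 and MBTPS1). No member called in the main fit was called in the opposite direction by an alternative. SEC61A1, not called in the main fit, was called higher with library totals (0.37). It was called lower with the length trend removed (-0.32) and by the median transcript. Library totals gave 2000 genes lower and 7592 higher. They left 3 oxidoreductases and 3 ERAD genes lower, made 1 chaperone and 1 member with ERSE or ERSE-II (CANX) higher, and gave 39 pathway genes lower and 82 higher. Without the filter, 1 chaperone and 1 member with ERSE or ERSE-II were likewise higher. With the length trend removed, 3 oxidoreductases, 1 ERAD gene, 1 translocon gene, 2 sensors, 7 members in all and 7 without an element were higher, and by the median transcript 2 sensors were. Leaving out 1 library at a time gave 0 to 1 chaperones, 2 to 5 oxidoreductases, 1 to 3 ERAD genes, 1 to 2 translocon genes, 8 to 15 members in all, 0 to 1 with an element and 8 to 14 without one higher, the lowest totals without shNT replicate 1; the lone library was assumed to vary like the other group. Signs turned with library totals for HSP90B1 (0.24), PDIA3 (0.52), PDIA6 (0.050), SYVN1 (0.20) and SEC61A1 (0.37). They turned with the length trend removed for SEL1L (-0.29), EDEM1 (-0.0455), SSR1 (-0.084) and ATF6 (-0.15), and by the median transcript for PDIA3 (0.051), ERP44 (-0.066) and ATF6 (-0.13). PDIA3 was also at 0.044 without the filter, and from -0.088 to 0.059 with 1 library left out. The cause was not tested. With the replicate block, 26 members were lower and 14 higher and 4301 and 4745 of all genes, and the only call among members that changed was that of SYVN1, which became lower.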
